A study of Solanum lycopersicum with 24 samples.

Results

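The class B and class C heat stress transcription factors (HSFs) of tomato and the coactivator MBF1c were followed through the heat response of leaves with and without the splicing factors RS2Z35 and RS2Z36. The set was listed by gene family with the coactivator MBF1c added, by a rule that used no values, though earlier results of these data were known. It holds 10 of the 34075 genes in the count tables: HSFB1 (Solyc02g090820), HSFB2a (Solyc03g026020), HSFB2b (Solyc08g080540), HSFB3a (Solyc04g016000), HSFB3b (Solyc10g079380), HSFB4a (Solyc04g078770), HSFB4b (Solyc11g064990), HSFB5 (Solyc02g078340), HSFC1 (Solyc12g007070) and MBF1c (Solyc01g104740). All 10 had a row in each of the 24 libraries, and 8 of them reached a sum of at least 10 reads over these libraries. The study sequenced RNA from excised leaves of Moneymaker tomato, 3 libraries for each of 4 genotypes kept for 1 h at 25°C (control) or for 1 h at 40°C (heat stress, HS). The donor plants were 6 weeks old, and leaves of 6 plants are named in the labels. The genotypes were wild type (WT), the single mutants rs2z35 and rs2z36, in which 1 or the other RS2Z gene was frame-shifted by CRISPR-Cas9 editing, and rs2z35 36, which came from a cross of the single mutants and lacks both intact genes. No second edited line of a genotype is named, so a mutant and its line cannot be told apart. HS leaves lay on wet paper in closed dishes in a water bath, and how control leaves were held is not given in the sources used here.

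HSFs bind heat shock elements in promoters. Class A members carry an activation motif and switch on chaperone genes, whereas class B and class C members lack that motif, and several class B members hold a short repression motif instead. MBF1c is a small coactivator whose transcript is known in Arabidopsis for its strong accumulation under heat and which that plant needs for thermotolerance.

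The libraries held 18692423 to 22517273 reads in control and 16853134 to 23929283 in HS, and levels are given as CPM (counts of a gene scaled to the size of its library) after TMM scaling over all 24 libraries. The HS counts had been adjusted for batch by the authors with ComBat-Seq and the control counts had not, so every heat response below sets adjusted against unadjusted counts. The leaf label was met by the Rubisco small subunit genes (111 to 7050 CPM in all libraries), whereas the fruit markers polygalacturonase and RIN and the pollen marker LAT52 stayed at or below 0.236 CPM. RS2Z35 was lower than in WT in rs2z35 (log2FC of -2.56) and rs2z35 36 (-2.63) in control, and RS2Z36 had a log2FC of -0.57 in rs2z36 (edgeR adjusted p = 0.0253) and -0.75 in rs2z35 36. In HS, RS2Z35 had log2FC values of -2.32 in rs2z35 and -2.37 in rs2z35 36. RS2Z36 had -0.32 in rs2z36 (edgeR adjusted p = 0.0794) and -0.37 in rs2z35 36 (adjusted p = 0.0433) in HS. The edited transcripts can still give reads, so these values are a weak check of the labels. The library kit did not keep strand, so reads of a member and of a gene on the opposite strand cannot be told apart. No gene lengths were matched to these gene numbers, and levels are therefore compared between groups and not between genes. In bulk leaf tissue, fewer cells of a type and less RNA per cell cannot be told apart.

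The first question was which members responded to heat in WT. MBF1c, HSFB2b, HSFB1 and HSFB2a rose, HSFB3a fell, HSFB4a and HSFC1 were lower in HS by less than the threshold, HSFB5 went from no reads to a few, and HSFB3b and HSFB4b were close to silent. A gene was called when its absolute log2FC was above 1 and its edgeR adjusted p below 0.01. Of the 7 members tested in WT, 4 were called higher and 1 lower, where 13.5% of the 22692 genes tested were called higher and 11.6% lower. The median log2FC of these members was 1.39, against -0.03 for all genes tested. The HS and control libraries of WT did not overlap for any of these 7 members, nor did they for 67.6% of all genes tested, so this separation is no mark of the set.

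**Figure D1:**
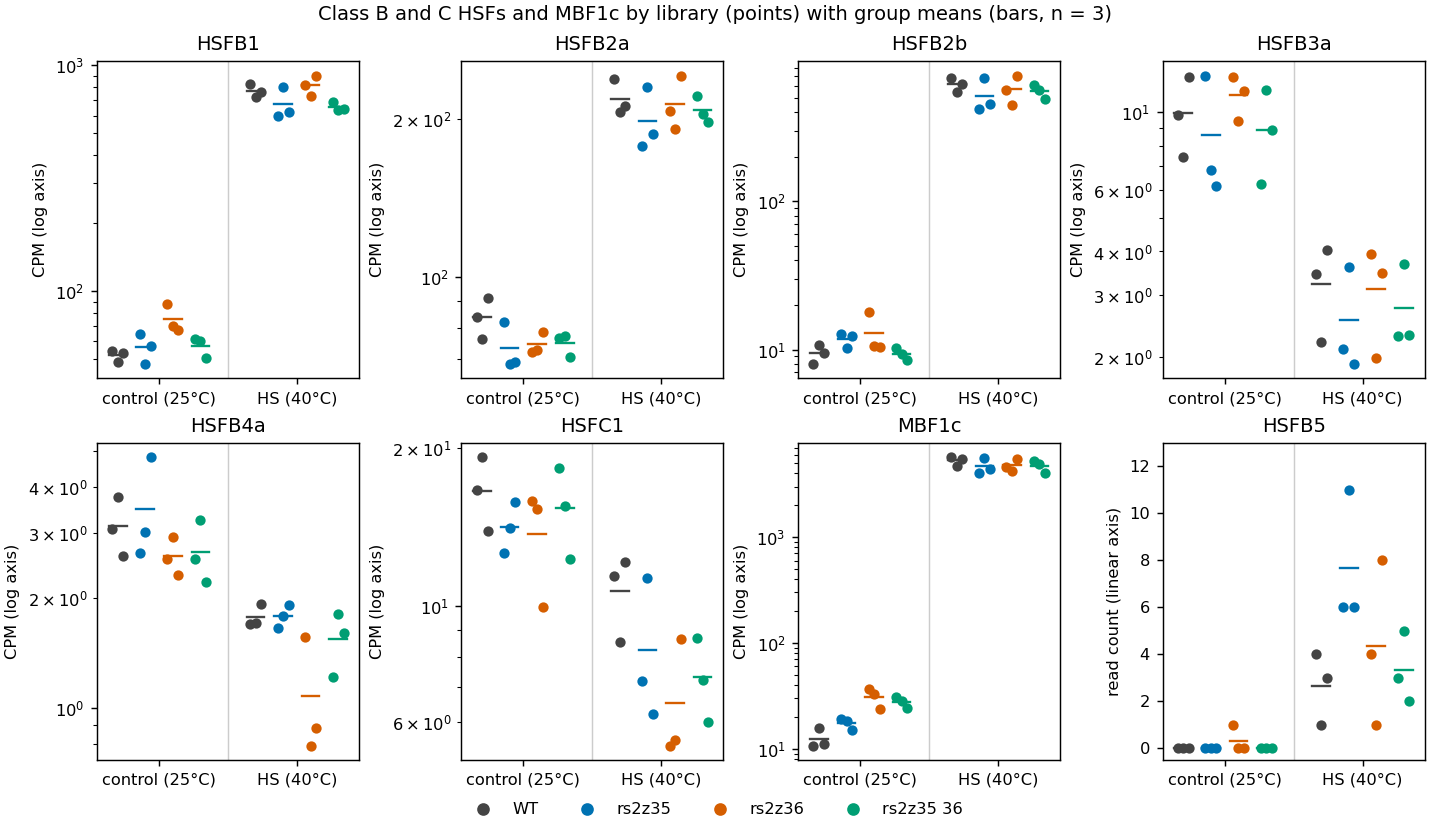
Level of 8 members in each of the 24 libraries, in CPM on a log axis for 7 of them and in read counts on a linear axis for HSFB5, with control libraries left and HS libraries right of the grey line, genotypes by colour and bars at group means (n = 3). The group means of MBF1c, HSFB2b, HSFB1, HSFB2a and HSFB5 were higher in HS in every genotype and those of HSFB3a, HSFB4a and HSFC1 lower. Some HS libraries of HSFC1 reached into its control range of 9.93 to 19.2 CPM, and some HS libraries of HSFB5 had 1 read, as had 1 of its control libraries.

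MBF1c showed the steepest response of the set. The 3 WT control libraries held 10.7, 15.6 and 11.2 CPM (283, 438 and 276 reads) and the 3 WT HS libraries 5679, 4723 and 5464 CPM (83758, 66521 and 79807 reads). The transcript thus went from a low level in every control library to at least 4723 CPM in every HS library, a 424-fold rise (log2FC of 8.73, SE 0.198, adjusted p = 8.29e-10). Ranked by log2FC, MBF1c was number 79 of the 22692 genes tested in WT.

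HSFB2b and HSFB1 had the highest heat log2FC in WT among the class B members tested there, which leaves out HSFB5. The names of the HSF genes are those of the family list by which the set was chosen and were not checked against a sequence, so known roles are tied to the names only. In Arabidopsis, members of these names repress HSF genes, and tomato HSFB1 can also act as a coactivator beside class A HSFs. HSFB2b rose from 7.99, 10.8 and 9.50 CPM in WT control to 685, 544 and 619 CPM in WT HS. This was a 65.7-fold rise (log2FC of 6.04, SE 0.146, adjusted p = 1.31e-09), with at least 7662 reads per HS library. HSFB1, already well expressed in control at 54.5, 48.6 and 53.3 CPM, reached 825, 726 and 761 CPM in HS. Its rise was 14.9-fold (log2FC of 3.89, SE 0.0943, adjusted p = 1.31e-09).

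HSFB2a, which is linked to gametophyte development in Arabidopsis, responded far less. It went from 84.1, 76.3 and 91.4 CPM in WT control to 238, 206 and 212 CPM in WT HS, 2.62-fold (log2FC of 1.39, SE 0.0924, adjusted p = 1.45e-06). HSFB2a and HSFB2b share a subgroup name, but their WT heat log2FC values of 1.39 (95% interval 1.18 to 1.60) and 6.04 (5.71 to 6.37) lay far apart.

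HSFB3a was the only member that fell past the threshold in WT. Its libraries held 9.84, 7.46 and 12.6 CPM in control and 3.46, 2.20 and 4.04 CPM in HS. All HS libraries lay below all control libraries, and the log2FC was -1.61 (SE 0.247, adjusted p = 0.000379). HSFB4a, whose Arabidopsis relative SCHIZORIZA acts in root patterning, held 3.07, 3.75 and 2.60 CPM in WT control and 1.69, 1.70 and 1.92 CPM in WT HS (log2FC of -0.82, SE 0.206, adjusted p = 0.00699). HSFC1, the only class C member, held 16.6, 19.2 and 13.9 CPM in control and 11.4, 8.52 and 12.1 CPM in HS (log2FC of -0.62, SE 0.155, adjusted p = 0.0063). Both had an adjusted p under 0.01 in WT, and neither reached the fold threshold.

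HSFB5 was not found in WT control, with 0 reads in each of the 3 libraries, and had 4, 1 and 3 reads in WT HS. At a sum of 8 reads it stayed under the minimum of 10 reads and was not tested in WT. Against 3 reads over the 3 control libraries, taken as the limit that a count of 0 allows, the WT HS level of HSFB5 was 4.86-fold. This value leaves out the counting error of the HS reads and is not a lower bound of the rise. Over all genotypes it had 1 read in the 12 control libraries, in rs2z36 replicate 1, and 54 reads in the 12 HS libraries, each of which had at least 1. This is a ratio of 94.3 (95% exact interval 16.2 to 3790), an interval that covers counting error only, and even the highest HS library reached no more than 0.595 CPM. HSFB3b had 2 reads in all 24 libraries, both in WT control replicate 1, and HSFB4b had 1 read, in WT control replicate 2. At this depth, 3 reads over the 12 control libraries correspond to 0.00975 CPM and 3 reads over the 12 HS libraries to 0.0170 CPM, so no response of these 2 genes was detectable.

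The second question was whether the same members responded to heat without RS2Z35, RS2Z36 or both. HSFB1, HSFB2a, HSFB2b and MBF1c rose and HSFB3a fell in each of the 3 mutants, as in WT. Under heat, MBF1c rose 268-fold in rs2z35 (log2FC of 8.07, SE 0.206), 154-fold in rs2z36 (7.26, SE 0.230) and 172-fold in rs2z35 36 (7.42, SE 0.181). The log2FC of HSFB2b was 5.47 (SE 0.223), 5.47 (SE 0.278) and 5.90 (SE 0.142) in rs2z35, rs2z36 and rs2z35 36, and that of HSFB1 was 3.59 (SE 0.166), 3.45 (SE 0.149) and 3.53 (SE 0.118). HSFB2a ranged from 1.45 to 1.52 and HSFB3a from -1.84 to -1.68 over the mutants. The background shares of genes called higher and lower under heat were 11.7% and 11.1% in rs2z35, 11.8% and 10.9% in rs2z36, and 13.1% and 12% in rs2z35 36.

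**Figure D2:**
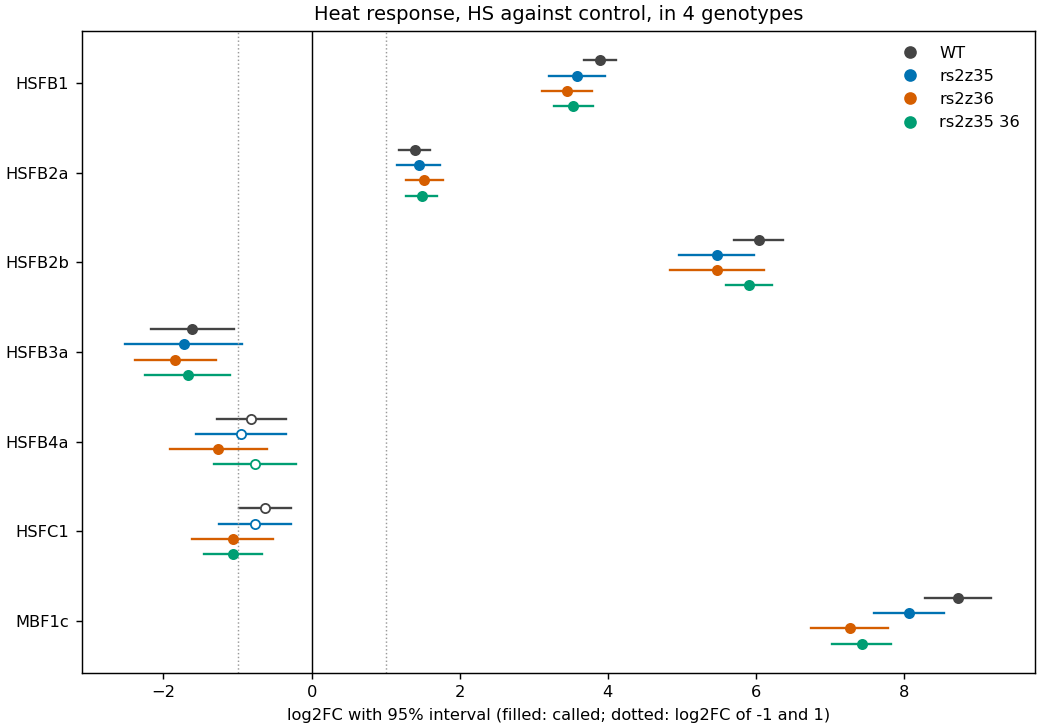
Heat response (log2FC, HS against control) of 7 members in 4 genotypes, with 95% intervals from edgeR, filled points for calls and open points for values that were not called. MBF1c was at 8.73 in WT and at 7.26 in rs2z36, HSFB2a lay between 1.39 and 1.52 in all genotypes, and HSFB4a and HSFC1 lay on both sides of the threshold of -1.

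Counts of calls differed a little between genotypes at the lower end of the set. In rs2z35, 5 members were called higher and 1 lower, in rs2z36 4 higher and 3 lower, and in rs2z35 36 5 higher and 2 lower, of 8 tested each. The fifth rise was HSFB5, which passed the read minimum in the mutants only through its HS libraries and so could only differ upward. HSFB5 had 6, 11 and 6 reads in rs2z35 HS, 4, 1 and 8 in rs2z36 HS and 3, 5 and 2 in rs2z35 36 HS. Against the same limit of 3 control reads, its HS level was 11.7-fold in rs2z35 and 6.32-fold in rs2z35 36, again without the counting error of the HS reads. In rs2z36, with its 1 control read, the ratio was 23.4 (95% exact interval 3.51 to 994), and the change was not called (edgeR adjusted p = 0.0179). The call in rs2z35 36 was lost without control replicate 2 or 3 (adjusted p of 0.0144 and 0.0134), HSFB5 had too few reads to be tested there without any 1 of the HS libraries, and in rs2z36 it was called without HS replicate 2 (adjusted p = 0.00808).

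HSFB4a was called lower under heat in rs2z36 alone (log2FC of -1.26, adjusted p = 0.00569), where the libraries held 2.55, 2.92 and 2.30 CPM in control and 1.56, 0.792 and 0.886 CPM in HS. HSFC1 was called lower in rs2z36 (-1.06, adjusted p = 0.00541) and rs2z35 36 (-1.06, adjusted p = 0.000373). These calls do not show a difference from WT, since the interactions of HSFB4a and HSFC1 with heat had an adjusted p of 0.744 or above in every mutant. They also lay near the thresholds and were lost in fits that left out 1 library. In rs2z36, leaving out control replicate 1, control replicate 2 or HS replicate 2 ended both calls, HS replicate 3 that of HSFB4a and HS replicate 1 that of HSFC1 (adjusted p between 0.0150 and 0.0291), and in rs2z35 36 leaving out control replicate 1 or HS replicate 3 took HSFC1 to between -0.92 and -0.91. Conversely, in rs2z35, HSFB4a was called without control replicate 1 (-1.12) and HSFC1 without HS replicate 2 (-1.06), and the call of HSFB3a ended without HS replicate 1 or 3 (adjusted p of 0.0152 and 0.0138).

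Over all 12 control and all 12 HS libraries, the ranges give the same order of conditions. MBF1c lay between 10.7 and 36.6 CPM in control (median 21.6) and between 4047 and 5679 CPM in HS (median 4802). HSFB2b lay between 7.99 and 17.9 CPM in control (median 10.4) and between 420 and 707 CPM in HS (median 567). HSFB1 lay between 47.6 and 88.2 CPM (median 58.7) and between 600 and 902 CPM (median 727). In none of these genes did a control library reach the HS range. HSFB2a lay between 68.3 and 91.4 CPM in control (median 76.4) and between 178 and 242 CPM in HS (median 206). HSFB3a lay between 6.17 and 12.7 CPM in control (median 9.63) and between 1.91 and 4.04 CPM in HS (median 2.88), and HSFB4a between 2.20 and 4.81 CPM (median 2.78) and between 0.792 and 1.92 CPM (median 1.68). HSFC1 was the exception to this separation, with 9.93 to 19.2 CPM in control (median 15.4) and 5.42 to 12.1 CPM in HS (median 7.88). The share of all genes without overlap was not taken for this split of 12 against 12 libraries. Within a genotype it was 62.5% to 67.6%, so the separation is not read as a trait of the members.

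The scaling set the side of the threshold on which the smaller responses fell. When libraries were scaled by their total counts instead of TMM, the median log2FC of all genes shifted by -0.76 in WT and by -0.67 to -0.72 in the mutants. Calls over all WT genes then split into 1547 higher and 7871 lower, against 3055 and 2634 with TMM. HSFB2a (0.63 in WT) was no longer called in any genotype, and HSFB4a (-1.58) and HSFC1 (-1.39) were called lower in WT, in which 3 members were then called higher and 3 lower. In the mutants the calls over all genes split into 1405 to 1588 higher and 6858 to 7519 lower. No member tested changed direction.

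The third question was whether loss of RS2Z proteins altered the members' levels at 25°C. MBF1c was higher than WT in rs2z36 and in rs2z35 36, and no other member was called. WT control libraries held 10.7, 15.6 and 11.2 CPM of MBF1c, rs2z35 19.3, 18.2 and 15.0 CPM, rs2z36 36.6, 32.7 and 23.9 CPM, and rs2z35 36 30.9, 28.1 and 24.5 CPM. All libraries of rs2z36 and rs2z35 36 lay above all libraries of WT and rs2z35, whereas WT and rs2z35 overlapped, as did rs2z36 and rs2z35 36. The level was 2.48-fold that of WT in rs2z36 (log2FC of 1.31, SE 0.176, 95% interval 0.93 to 1.69, adjusted p = 0.00394) and 2.22-fold in rs2z35 36 (1.15, SE 0.176, 0.77 to 1.53, adjusted p = 0.00744). In rs2z35 it was 1.40-fold (0.48, SE 0.177, 0.10 to 0.87, adjusted p = 0.346). MBF1c was thus 1 of 7 members tested that was called in rs2z36 and in rs2z35 36, where 0.187% and 0.174% of the 23532 genes were called, and 0 of 7 were called in rs2z35, where 0.0510% were. At an unadjusted p under 0.05, the counts were 2, 3 and 1 of 7 in rs2z35, rs2z36 and rs2z35 36, beside 10.5%, 14.1% and 17% of all genes. The libraries of 18.5% and 24.7% of all genes did not overlap between WT and rs2z36 or rs2z35 36. The 3 comparisons share the WT libraries.

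These 2 calls were not stable to single libraries. The call in rs2z36 was lost without WT control replicate 1 or 3 or without rs2z36 control replicate 1 or 2 (log2FC between 1.17 and 1.27, adjusted p between 0.0148 and 0.0353), and that in rs2z35 36 without WT control replicate 1 or 3 or any of its own 3 libraries (1.05 to 1.23, adjusted p between 0.0197 and 0.0417). With only the 6 libraries of WT and rs2z36 in the fit, the call in rs2z36 was also lost (adjusted p = 0.0461). DESeq2 without shrinkage kept both calls (adjusted p of 2.93e-09 and 4.83e-07).

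Other strongly heat-induced genes moved in the same direction in the control libraries of the mutants. Apart from the members, 65 genes reached 500 CPM in HS together with 64 times their control level. In control, their median log2FC against WT was 0.71 in rs2z35, 0.98 in rs2z36 and 0.71 in rs2z35 36, with 63, 65 and 64 of 65 higher and 1, 18 and 4 called, against a median over all genes between 0.00 and 0.01. MBF1c stood within this list in rs2z35, in which 41 of the 65 genes had a larger log2FC, and nearer its top in rs2z36 and rs2z35 36, in which 11 and 7 had. In HS, the median log2FC of the 65 genes against WT was -0.17 in rs2z35, -0.11 in rs2z36 and -0.12 in rs2z35 36. There 2, 11 and 12 of 65 were higher and 0 were called, against a median over all genes between 0.00 and 0.01. As a share of the HS level of the same genotype, MBF1c stood in control at 0.203%, 0.295% and 0.212% in WT, 0.413%, 0.390% and 0.321% in rs2z35, 0.769%, 0.687% and 0.503% in rs2z36 and 0.654%, 0.593% and 0.519% in rs2z35 36. The median of the 10 listed genes with the lowest such share in a library was 0.0718% to 0.0881% in WT, 0.178% to 0.245% in rs2z35, 0.175% to 0.291% in rs2z36 and 0.158% to 0.185% in rs2z35 36. This median was higher in every mutant library than in every WT library. It lies low by its construction. The median over all 65 genes was 0.162% to 0.180% in WT, 0.287% to 0.367% in rs2z35, 0.302% to 0.467% in rs2z36 and 0.343% to 0.357% in rs2z35 36, and in rs2z35 the share of MBF1c was close to it (0.413%, 0.390% and 0.321% against 0.287%, 0.367% and 0.308%). With the median of the 10 lowest taken as a share of the HS profile and subtracted from the counts of each control library, an alternative added after the data were seen, the log2FC of MBF1c was -0.03 in rs2z35, 1.31 in rs2z36 (adjusted p = 0.0539) and 1.27 in rs2z35 36 (adjusted p = 0.0332), none of them called. Before the subtraction these values were 0.48, 1.31 and 1.15. The calls in rs2z36 and rs2z35 36 thus ended through the adjusted p and not through a smaller log2FC. What part the control shift of the 65 genes has in the level of MBF1c was not tested.

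**Figure D3:**
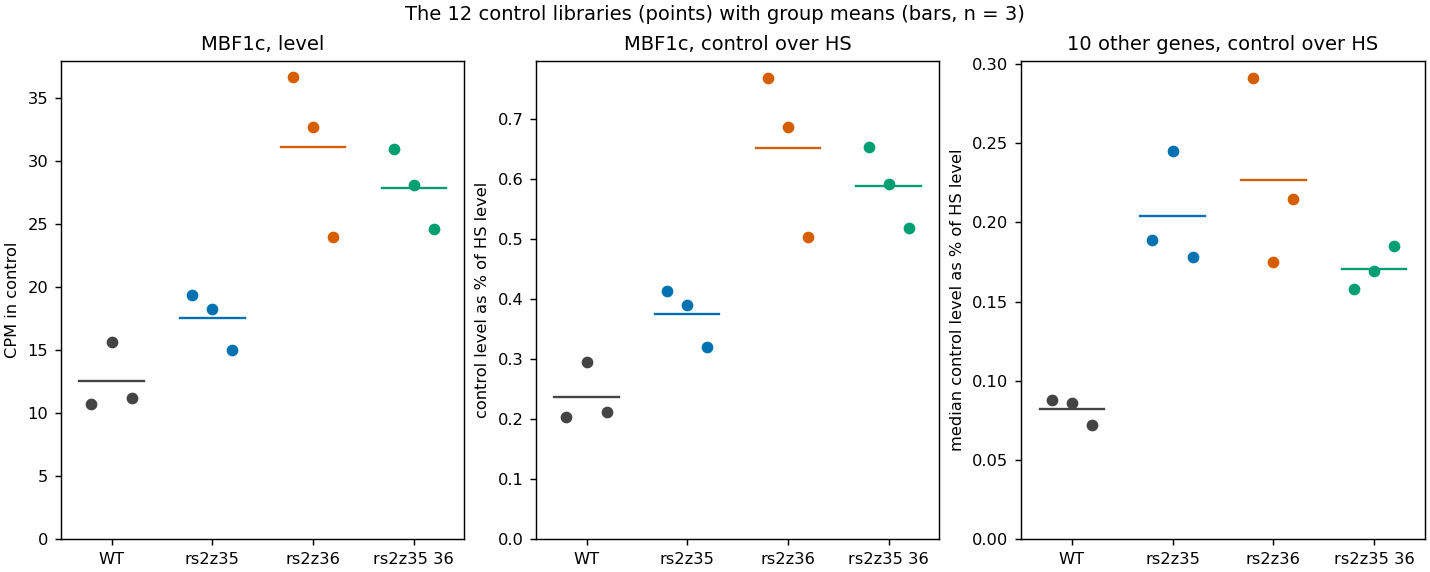
MBF1c in the 12 control libraries in CPM (left), as a percentage of its mean HS level in the same genotype (middle), and the median of that percentage over the 10 lowest of 65 other heat-induced genes in each library (right), with bars at group means (n = 3). MBF1c was at 23.9 to 36.6 CPM in rs2z36 against 10.7 to 15.6 CPM in WT, and the other genes were at 0.158% or above in every mutant library against 0.0881% or below in WT.

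Among the other members in control, HSFB1 in rs2z36 had the largest log2FC against WT. Its control libraries held 88.2, 70.2 and 67.0 CPM in rs2z36, and the highest of the other 9 control libraries was at 64.6 CPM. Such a gap is common, since the control libraries of 18.5% of all genes did not overlap between WT and rs2z36. The log2FC of HSFB1 against WT was 0.53 (SE 0.126, 95% interval 0.26 to 0.80), which was not called (adjusted p = 0.0823). In rs2z35 and rs2z35 36 HSFB1 had log2FC values of 0.12 and 0.13. HSFB2b in rs2z36 had a log2FC of 0.46 (adjusted p = 0.314) with 17.9, 10.6 and 10.5 CPM, the first library being the high one. HSFB2a, HSFB3a, HSFB4a and HSFC1 lay between -0.28 and 0.17 in all 3 mutants. The 95% intervals of HSFB2a stayed within -0.39 and 0.03, while those of HSFB3a reached from -0.82 to 0.78.

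Under HS, no member was called against WT in any mutant. The background was 0.0302% of 23162 genes in rs2z35, 0.142% in rs2z36 and 0.190% in rs2z35 36, and at an unadjusted p under 0.05 the counts were 0, 2 and 1 of 8 members, beside 8.56%, 15.2% and 14.2% of all genes. MBF1c reached 4059, 5524 and 4437 CPM in rs2z35 HS, 4582, 4178 and 5511 CPM in rs2z36 HS and 5251, 4880 and 4047 CPM in rs2z35 36 HS. These libraries overlap those of WT, and the log2FC was -0.16 (95% interval -0.48 to 0.15), -0.14 (-0.45 to 0.18) and -0.15 (-0.47 to 0.17). HSFB1 had a log2FC of 0.10 in rs2z36 HS (95% interval -0.15 to 0.35) and of -0.22 in rs2z35 36 HS (-0.47 to 0.03). HSFB4a and HSFC1 were the members with the lowest values in rs2z36 HS, at -0.71 (95% interval -1.27 to -0.14, adjusted p = 0.207) and -0.69 (-1.23 to -0.16, adjusted p = 0.193). The 3 rs2z36 libraries of HSFB4a (1.56, 0.792 and 0.886 CPM) lay below the lowest WT library, on counts of 21, 12 and 12 reads, and the libraries of 21.3% of all genes did not overlap in this comparison. HSFB5, with few reads, had a log2FC of 1.28 in rs2z35 HS (95% interval -0.12 to 2.68, edgeR adjusted p = 0.628). Its rs2z35 and WT libraries did not overlap, nor did those of 14.4% of all genes.

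**Figure D4:**
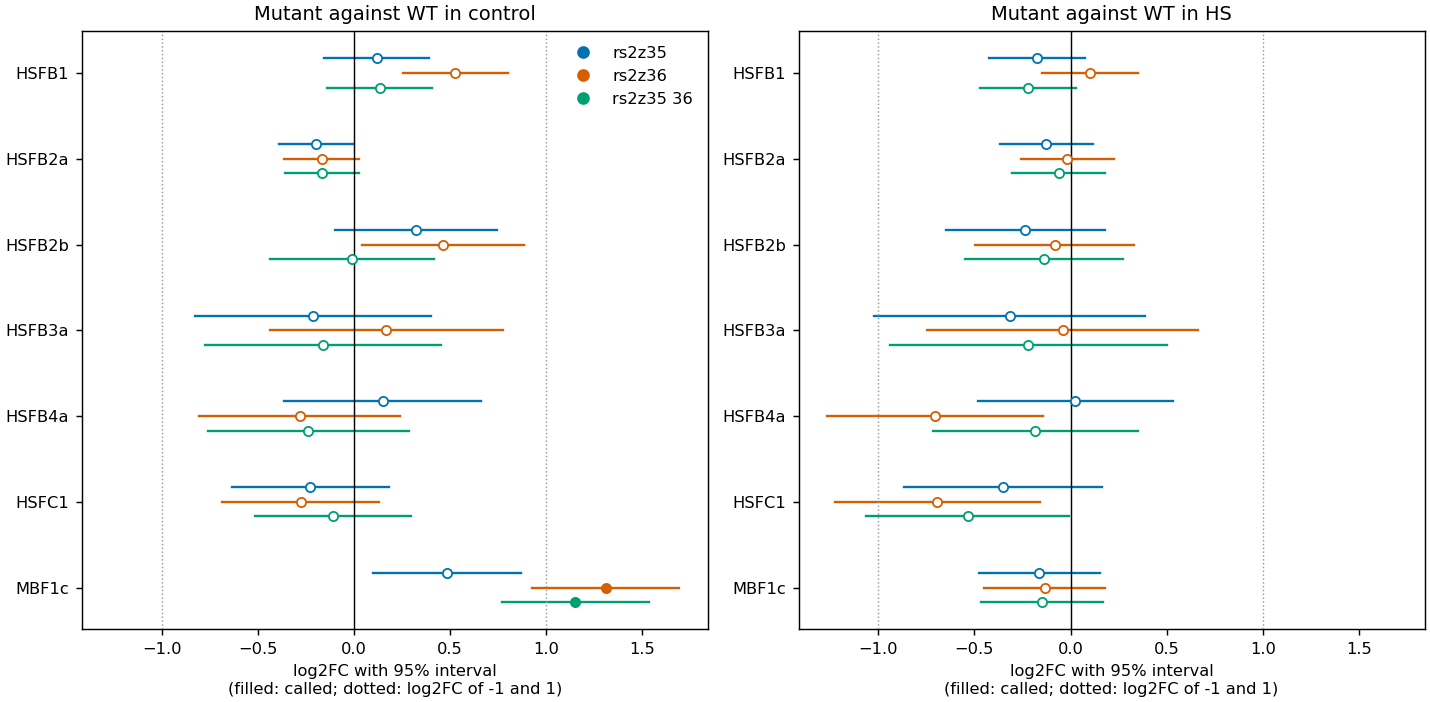
Mutant against WT (log2FC with 95% intervals from edgeR) for 7 members in control (left) and HS (right), with filled points for calls. Filled points are present only for MBF1c in control, at 1.31 in rs2z36 and 1.15 in rs2z35 36, and in HS the 3 values of MBF1c lie between -0.16 and -0.14.

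The difference in heat response was tested directly by the interaction of genotype with heat. For MBF1c, the heat log2FC was smaller than in WT by 1.46 in rs2z36 (interaction of -1.46, SE 0.243, 95% interval -1.97 to -0.95, adjusted p = 0.0059), which was the only interaction of a member that was called. It was -1.31 in rs2z35 36 (SE 0.243, adjusted p = 0.0309) and -0.66 in rs2z35 (SE 0.244, adjusted p = 0.546), neither of them called. In rs2z35, rs2z36 and rs2z35 36, the log2FC of MBF1c against WT was 0.48, 1.31 and 1.15 in control. It was -0.16, -0.14 and -0.15 in HS, where the libraries overlapped those of WT. The 65 other heat-induced genes had median interactions of -0.81, -1.05 and -0.84 in rs2z35, rs2z36 and rs2z35 36, all 65 below 0 in each, with 2, 21 and 6 called, and their part in the value of MBF1c was not tested. The call in rs2z36 was lost in 8 of the 12 fits that left out a library, namely replicate 1 or 2 of rs2z36 control or HS and replicate 1 or 3 of WT control or HS (values between -1.44 and -1.33, adjusted p between 0.0157 and 0.0358). The background was 0.0122% of 24583 genes in rs2z35, 0.106% in rs2z36 and 0.0407% in rs2z35 36. The interactions of HSFB1 were -0.44 in rs2z36 (adjusted p = 0.514) and -0.37 in rs2z35 36, those of HSFB2b were -0.57, -0.56 and -0.14, and those of HSFB2a lay between 0.06 and 0.14. At an unadjusted p under 0.05, 1, 2 and 1 of 8 members passed in rs2z35, rs2z36 and rs2z35 36, beside 7.40%, 8.75% and 8.55% of all genes.

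Between mutants, no member was called in control or HS. In control, MBF1c had a log2FC of 0.83 for rs2z36 against rs2z35 (95% interval 0.45 to 1.20, adjusted p = 0.110), of 0.67 for rs2z35 36 against rs2z35 (0.29 to 1.04, adjusted p = 0.211) and of -0.16 for rs2z35 36 against rs2z36 (-0.53 to 0.21, adjusted p = 0.852). A call in rs2z36 and none in rs2z35 was therefore not shown to be a difference between these mutants, although their control libraries did not overlap (nor did those of 13.2% of all genes). The backgrounds in control were 0.0552% of genes for rs2z36 against rs2z35, 0.0212% for rs2z35 36 against rs2z35 and 0.0552% for rs2z35 36 against rs2z36. In HS they were 0.151%, 0.147% and 0.125% in the same order, and MBF1c lay between -0.01 and 0.03 in the 3 comparisons. At an unadjusted p under 0.05 in edgeR, the members that passed were 2, 1 and 2 of 7 in control and 2, 0 and 1 of 8 in HS, again in that order, beside 9.72%, 9.74% and 8.96% of all genes in control and 13.1%, 15.6% and 10.4% in HS. HSFB1 was lower in rs2z35 36 than in rs2z36 by a log2FC of -0.40 in control (adjusted p = 0.321) and -0.33 in HS (adjusted p = 0.314), without overlap of libraries in either condition, as for 13.1% and 15.2% of all genes. In control, the rs2z35 36 libraries of HSFB2b overlapped neither those of rs2z36 (-0.47, edgeR adjusted p = 0.493) nor those of rs2z35 (-0.33, adjusted p = 0.622). The same held for 13.1% and 15.6% of all genes. In HS, HSFB4a had a log2FC of -0.73 for rs2z36 against rs2z35 (edgeR adjusted p = 0.212), without overlap of libraries, as for 18.6% of all genes.

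Ordered by mean level, the 8 groups of each tested member fell into an HS block and a control block. MBF1c ran from WT HS (5289 CPM ± 501, SD, n = 3) over rs2z36 HS (4757 ± 683), rs2z35 36 HS (4726 ± 617) and rs2z35 HS (4673 ± 761) to rs2z36 control (31.1 ± 6.50), rs2z35 36 control (27.8 ± 3.19), rs2z35 control (17.5 ± 2.25) and WT control (12.5 ± 2.71). Neighbours in this order overlapped except at the step from HS to control and between rs2z35 36 control and rs2z35 control. HSFB1 ran from rs2z36 HS (818 ± 86.8), WT HS (771 ± 50.6), rs2z35 HS (675 ± 110.1) and rs2z35 36 HS (655 ± 30.9) to rs2z36 control (75.1 ± 11.4), rs2z35 36 control (57.3 ± 5.87), rs2z35 control (56.5 ± 8.55) and WT control (52.2 ± 3.12). Here rs2z36 control was above its neighbour without overlap. HSFB2a, HSFB2b, HSFB3a and HSFB4a had no step between neighbours other than that between HS and control, and HSFC1 had none at all, since its lowest control group, rs2z36 (13.7 ± 3.28), overlapped its highest HS group, WT (10.7 ± 1.90).

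Class A HSFs were set beside these values. Of 15 class A gene numbers listed for this comparison, 3 were described as heat stress factors in the sources used here. The other 12 were not used, although all 15 were in the count tables. The descriptions were read from the study's lists of differentially expressed genes in these data. The 3 genes were thus picked through their change, and their calls do not stand for class A HSFs as a set. All 3 were called higher under heat in all 4 genotypes. HSFA2, the factor that sustains the response during longer heat, went from between 21.4 and 30.5 CPM in control to between 2800 and 4420 CPM in HS, with log2FC values of 7.35 in WT and 6.91 to 7.07 in the mutants. Solyc09g065660 had log2FC values of 9.62 in WT and 7.74 to 8.09 in the mutants, and Solyc02g072000 of 4.83 and 4.31 to 4.71. In control, HSFA2 had log2FC values of 0.02, 0.18 and 0.15 in rs2z35, rs2z36 and rs2z35 36 (adjusted p of 0.590 or above). Solyc09g065660 had values of 1.21, 1.58 and 1.66, the last of which was called (adjusted p = 0.00694), at levels between 0.928 and 3.87 CPM.

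Profiles were compared over the 24 libraries by the root mean square difference of log2 CPM, each profile centred on its own mean, among 18494 genes and for the 6 members that reached 10 CPM in a group. All genes share the same libraries, and a large heat step weighs most. The nearest to MBF1c were Solyc06g076570, a class I heat shock protein (0.264), Solyc06g036290, an HSP90 (0.293), and Solyc03g117960, a protein with a forkhead-associated domain (0.298). The nearest to HSFB2b was Solyc02g065540, an E3 ubiquitin-protein ligase (0.153), followed by Solyc05g008120 (0.201) and Solyc07g048120 (0.210). HSFB1 was nearest to Solyc04g015370 (0.182), Solyc10g054910 (0.198) and Solyc09g074510 (0.205). HSFB2a had closer neighbours, Solyc12g010890 (0.0649), Solyc01g107880, a RING-type zinc finger protein (0.0923), and Solyc11g068740 (0.0969). HSFB3a was nearest to Solyc12g010960 (0.243), Solyc07g053550 (0.253) and Solyc08g077440 (0.286), and HSFC1 to Solyc01g090790, a bHLH transcription factor (0.212), Solyc11g010550 (0.223) and Solyc10g006480 (0.224). Among the members themselves the closest pair was HSFB4a and HSFC1 (0.372), and HSFB1 and HSFB2b stood at 1.06.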

How the data were processed

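The authors deposited a read count per gene for each of the 24 libraries. Per their methods, paired reads from polyadenylated RNA were mapped with STAR to tomato build SL4.0 with annotation ITAG4.0 and counted with HTSeq 0.9.1, and the HS counts were then adjusted with ComBat-Seq, whose batch variable is not given in the sources used here. Here the counts were tested with the quasi-likelihood test of edgeR 4.0.16 in R 4.3.3 (read sum of at least 10, TMM, Benjamini-Hochberg adjustment over all tested genes). Heat responses used the 6 libraries of a genotype, mutant comparisons the 12 of a condition and interactions all 24. Log2 CPM used a prior count of 2. Intervals cover 95%. For counts of 0, the limit of 3 reads covers the counting error of those counts only. The exact intervals for HSFB5 cover counting error only.

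Each group had 3 libraries, stated to be biological replicates, with 16853134 to 23929283 reads. Replicate pairs differed by more than sampling noise (chi-square per degree of freedom of 4.58 to 27.0). For each replicate number, the correlation of same-numbered libraries was highest between WT and rs2z36 in control (0.26, 0.18 and 0.50). Whether these libraries are pairs is not stated in the labels and was not tested. In that comparison, the edgeR fit with the replicate number as a block gave MBF1c 1.30 (adjusted p = 0.00218). Within HS all such correlations were below 0 (-0.58 to -0.03). Whether the batch adjustment took out an effect of the replicate number was not tested. Any spread that this adjustment removed is missing from the p-values of tests that use HS counts. On simulated counts, 200 genes changed by a log2FC of 2 were recovered to 100% in the WT heat response over 22545 genes and to 95% in the rs2z36 interaction over 24498 genes. The simulation gave all genes the same spread, changed no genes with few reads and held no batch adjustment. Its rates therefore do not tell how changes near the threshold of 1 are recovered.

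Members and gene lists were chosen with earlier results of these data known. All 10 members are named, with the 3 nearest profiles for members that reach 10 CPM. Results were recomputed with DESeq2 1.42.0, both plain and shrunken by apeglm 1.24.0, and with its size factors, other filters, total-count scaling, the replicate block, other sets of libraries in the fit and leaving out each library. Sequences and coordinates were not used here.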

Additional observations from a re-analysis of the deposited data

Results flagged for a closer look

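MBF1c had a smaller heat response in rs2z36 than in WT, with an interaction of -1.46 (SE 0.243, edgeR adjusted p = 0.0059). The same difference was -1.31 in rs2z35 36 (SE 0.243, adjusted p = 0.0309), under 0.05 but not under the threshold of 0.01. Both were singled out because the test of the difference between genotypes had an adjusted p under 0.05. The control libraries of rs2z36 and rs2z35 36 were all above those of WT, and their HS libraries overlapped those of WT. The 65 other heat-induced genes had medians of -1.05 and -0.84 in these interactions, and their part in the value of MBF1c was not tested.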

How the results depend on the processing

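Over the alternative values of single members, 708 kept their direction and their side of the threshold, 43 lost a call, 10 gained one and 1 changed sign, MBF1c in rs2z35 control at -0.032 after an estimated HS share was taken off (added after the data were seen). The count of members called fell from 1 to 0 in rs2z36 control with only the 6 libraries compared and with that share taken off, fell to 0 in rs2z35 36 control with the share taken off, and rose from 0 to 1 for the rs2z35 36 interaction in DESeq2 without shrinkage (MBF1c, -1.31, adjusted p = 0.000213). Leaving out 1 library gave 0 or 1 called for rs2z36 control, rs2z35 36 control and the rs2z36 interaction. The replicate block ended the heat calls of HSFB4a (-1.28, adjusted p = 0.0122) and HSFC1 (-1.06, adjusted p = 0.0177) in rs2z36 and of HSFB5 in rs2z35 (adjusted p = 0.0108) and rs2z35 36 (adjusted p = 0.0150) and changed no other member's call. HSFB5 was called in rs2z36 with all 24 libraries in the fit (adjusted p = 0.00315). The replicate block is a fit on numbers that the labels do not state to be pairs. Correlations of same-numbered libraries ran from -0.24 to 0.20 between conditions and from -0.58 to -0.03 within HS. Over all genes in HS, the block took the 33 and 44 calls of rs2z36 and rs2z35 36 against WT to 9 each. DESeq2 with apeglm ended the call of HSFC1 in rs2z36 heat (-0.99). Over all genes, calls against WT in rs2z35, rs2z36 and rs2z35 36 were 12, 44 and 41 in control and ranged over 3 to 82, 7 to 109 and 16 to 147; in HS, 7, 33 and 44 ranged over 4 to 17, 7 to 77 and 9 to 107. The interaction calls of 3, 26 and 10 ranged over 0 to 41, 12 to 45 and 1 to 32. Between mutants (rs2z35 36 against rs2z35, rs2z35 36 against rs2z36, rs2z36 against rs2z35), 5, 13 and 13 in control ranged over 3 to 32, 6 to 38 and 5 to 48, and 34, 29 and 35 in HS over 5 to 118, 8 to 58 and 6 to 79. Heat calls rose to 9418, 8263, 8455 and 9107 with total counts, from 5689, 5157, 5138 and 5670. Where a cause is not named above, it was not tested. Depth limits HSFB3b, HSFB4b and HSFB5, and unadjusted HS counts were not used here.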
